A study of Homo sapiens with 6 samples.

Results

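Matrix metalloproteinases (MMPs) and tissue inhibitors of metalloproteinases (TIMPs) were followed as 10 genes, MMP1, MMP2, MMP3, MMP9, MMP10, MMP13, MMP14, TIMP1, TIMP2 and TIMP3, out of 67140 gene identifiers in the deposited table. They were taken by name through their Ensembl identifiers, from a list drawn up with earlier results of these data known. All 10 were among the 19254 genes that passed a filter on low counts and were tested. The samples were KYSE150 cells, an established human esophageal squamous cell carcinoma (ESCC) line. The study asked which genes change when the long non-coding RNA AC007128.1 is depleted, in work on migration and invasion of ESCC cells. Poly-A RNA was sequenced from 3 samples with a control hairpin (shCtrl) and 3 samples with a hairpin against AC007128.1 (shAC007128.1). Both groups share the cell line and the medium, RPMI with fetal bovine serum, and the labels describe a transfection where the methods describe lentivirus and puromycin selection. Only 1 hairpin against AC007128.1 is named for these samples, so effects of the depletion and of that hairpin cannot be told apart. Nothing says that the 3 samples of a group came from separate cultures, so the p-values measure only the spread between these samples.

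MMPs are zinc-dependent proteases that cut the proteins of the extracellular matrix, and most are made as inactive precursors. The collagenases MMP1 and MMP13 cut fibrillar collagen, the stromelysins MMP3 and MMP10 cut a broad range of matrix proteins and activate other MMPs, and the gelatinases MMP2 and MMP9 cut denatured collagen and basement membrane collagen. MMP14 is held in the cell membrane, and TIMPs bind and block active MMPs. TIMP2 also joins MMP14 and the MMP2 precursor in a complex at the cell surface in which the MMP2 precursor is activated.

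Depth was 55764405 to 78610457 counts per sample, higher in each shCtrl sample than in any shAC007128.1 sample, and 3 counts in a sample correspond to 0.0373 to 0.0546 CPM. CPM are counts scaled to a common library size by TMM, a factor that sets the bulk of genes equal between libraries. Low counts piled up at multiples of 4, so the values may hold fewer independent fragments than counts. AC007128.1 itself had counts of 69, 33 and 53 in shCtrl cells and 18, 37 and 15 in shAC007128.1 cells, and the groups overlapped. The log2 fold change of AC007128.1 was -0.77 (standard error, SE, 0.51, adjusted p = 0.271 by edgeR's quasi-likelihood test with Benjamini-Hochberg adjustment), so a lower level was not detected for the targeted gene at this depth. Of its 1853 exonic bases, 398 are shared with ICA1-AS1 and 384 with ENSG00000272328, both on the same strand, and 118 with ICA1 on the opposite strand. Reads from shared bases cannot be assigned to AC007128.1 alone. By qPCR, the paper reports that its hairpin lowered AC007128.1 RNA in ESCC cells. Of 8 squamous epithelial markers all were tested, and their summed level was 1927 to 1969 CPM in shCtrl samples and 2870 to 3630 CPM in shAC007128.1 samples. At an edgeR adjusted p of at most 0.05, 6 were higher and 0 lower, where 21.0% and 19.8% of all genes tested were. KRT17 and TP63 did not pass, and TP63 had a log2 fold change of -0.27.

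A gene was called when its edgeR adjusted p was at most 0.05 and its log2 fold change was at least 1 in size. Among the 10 genes, 2 were called higher in shAC007128.1 cells, the collagenases MMP1 and MMP13, where 5.57% of all genes tested were called higher. TIMP2 was the 1 gene called lower, where 10.1% of all genes tested were. Without the limit on fold change, 3 of the 10 were higher (MMP1, MMP13 and TIMP1), against 21.0% of all genes. On the same terms 4 were lower (MMP2, MMP14, TIMP2 and TIMP3), against 19.8% of all genes. The groups did not overlap in 7 of the 10 genes, which held for 55.2% of all genes tested. The median log2 fold change was -0.49 over the 10 genes and -0.02 over all genes tested. Positions below are on hg38 from GENCODE v44.

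**Figure D1:**
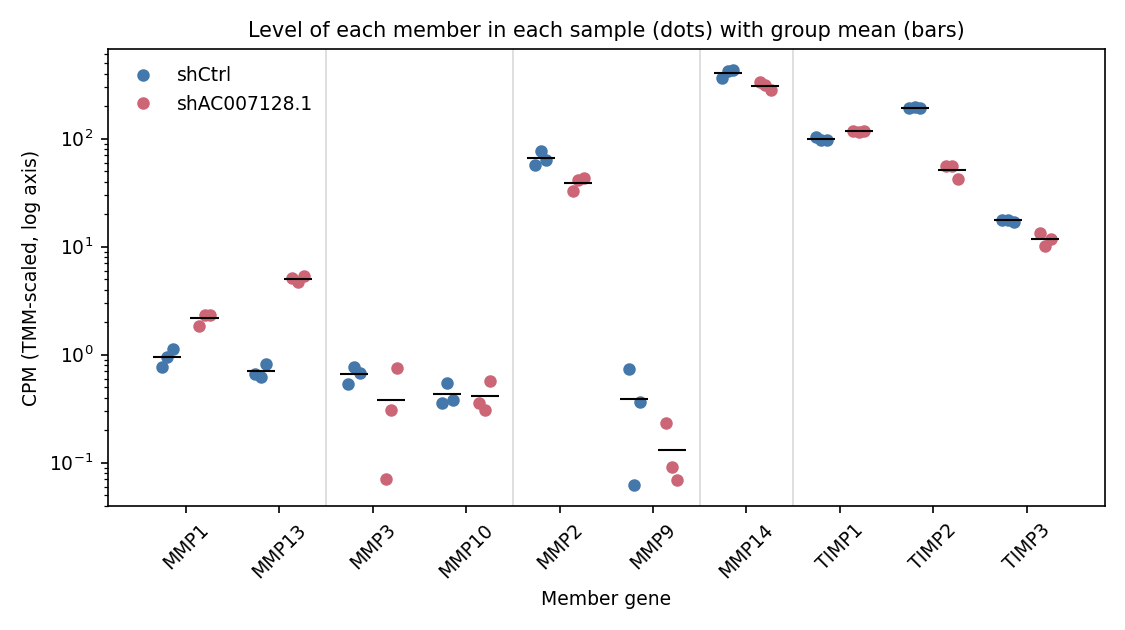
TMM-scaled CPM (log axis) of the 10 genes in each of the 3 shCtrl (blue) and 3 shAC007128.1 (red) samples, with black bars for group means and grey lines between collagenases, stromelysins, gelatinases, MMP14 and TIMPs. MMP13 rises from about 0.701 to 5.07 CPM and TIMP2 falls from 193.4 to 51.3 CPM with no overlap, while MMP3, MMP9 and MMP10 overlap between groups.

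MMP13, collagenase 3, showed the largest fold change of the 10 genes. The gene (ENSG00000137745) lies on the minus strand at chr11:102942995-102955732. Counts were 48, 50 and 56 in shCtrl replicates 1, 2 and 3, and 290, 261 and 308 in shAC007128.1 replicates 1, 2 and 3. As CPM these were 0.656, 0.622 and 0.825 against 5.16, 4.75 and 5.30. Every shAC007128.1 sample was above every shCtrl sample, with a wide gap between the groups. MMP13 rose 7.23-fold, from 0.701 ± 0.109 CPM (SD, n = 3) to 5.07 ± 0.284 CPM (SD, n = 3). On the log2 scale the change was 2.85 (SE 0.20, 95% interval 2.38 to 3.32, edgeR adjusted p = 7.72e-05). At 4 counts per fragment, these values would stand for 12 to 77 fragments per sample.

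MMP1, interstitial collagenase, rose by less. Its gene (ENSG00000196611) lies on the minus strand at chr11:102789401-102798160. Counts were 56, 76 and 76 in shCtrl cells and 104, 129 and 136 in shAC007128.1 cells, or 0.765, 0.945 and 1.12 CPM against 1.85, 2.35 and 2.34 CPM. The groups did not overlap. The mean went from 0.943 ± 0.177 CPM (SD, n = 3) to 2.18 ± 0.285 CPM (SD, n = 3), 2.31-fold higher, with a log2 fold change of 1.21 (SE 0.24, 95% interval 0.64 to 1.77, edgeR adjusted p = 0.00649). Of its 2738 exonic bases, 223 (8.14%) are shared with the pseudogene WTAPP1 on the opposite strand. The use of strand in counting is not given in the sources used here, so reads from these bases cannot be assigned to 1 of the pair. WTAPP1 had 15 to 38 counts in shCtrl samples and 3 to 14 in shAC007128.1 samples, the opposite order to MMP1 (log2 fold change -1.29, edgeR adjusted p = 0.169).

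The stromelysins did not pass the test. MMP3 (ENSG00000149968, chr11:102835801-102843609, minus strand) had 39, 62 and 46 counts in shCtrl cells and 4, 17 and 44 in shAC007128.1 cells. The shAC007128.1 samples spread widely, from 0.0712 to 0.757 CPM, and the highest of them lay inside the shCtrl range of 0.533 to 0.771 CPM. The log2 fold change of MMP3 was -0.80 with a SE of 0.71 and a 95% interval from -2.45 to 0.86 (edgeR adjusted p = 0.411). It moved to -1.80 without shAC007128.1 replicate 3 and to -0.30 without shAC007128.1 replicate 1, and passed in neither. MMP10 (ENSG00000166670, chr11:102770502-102780628, minus strand) had 26, 44 and 26 counts against 20, 17 and 33. Its means were almost equal, 0.428 ± 0.103 CPM and 0.411 ± 0.138 CPM (SD, n = 3 each). The log2 fold change was -0.06 (SE 0.42, edgeR adjusted p = 0.922), and its 95% interval from -1.05 to 0.93 still allows changes close to 2-fold in either direction.

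The 4 genes above lie together in the MMP gene cluster of chromosome 11, which holds 9 MMP genes within 435.2 kb (chr11:102520508-102955732). The lower coordinates of MMP1 and MMP13 lie 153.6 kb apart, with 2 other MMP genes, MMP3 and MMP12, between them. MMP12, macrophage elastase, had 54, 29 and 33 counts in shCtrl cells and 11, 45 and 46 in shAC007128.1 cells, and its groups overlapped (log2 fold change 0.19, SE 0.58, edgeR adjusted p = 0.820). MMP7, matrilysin, had 8, 21 and 17 counts against 5, 13 and 0 (log2 fold change -0.93, SE 1.04, edgeR adjusted p = 0.517). MMP20 and MMP27 had 0 counts in every sample, and MMP8 had 2 counts in 1 sample, so these 3 were not tested. Of the 6 cluster genes tested, MMP1 and MMP13 were the 2 that passed. At the adjusted p alone, 21.0% of all genes tested were higher and 19.8% lower. The other 4 had wide intervals, and the differences between genes of the cluster were not tested.

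**Figure D2:**
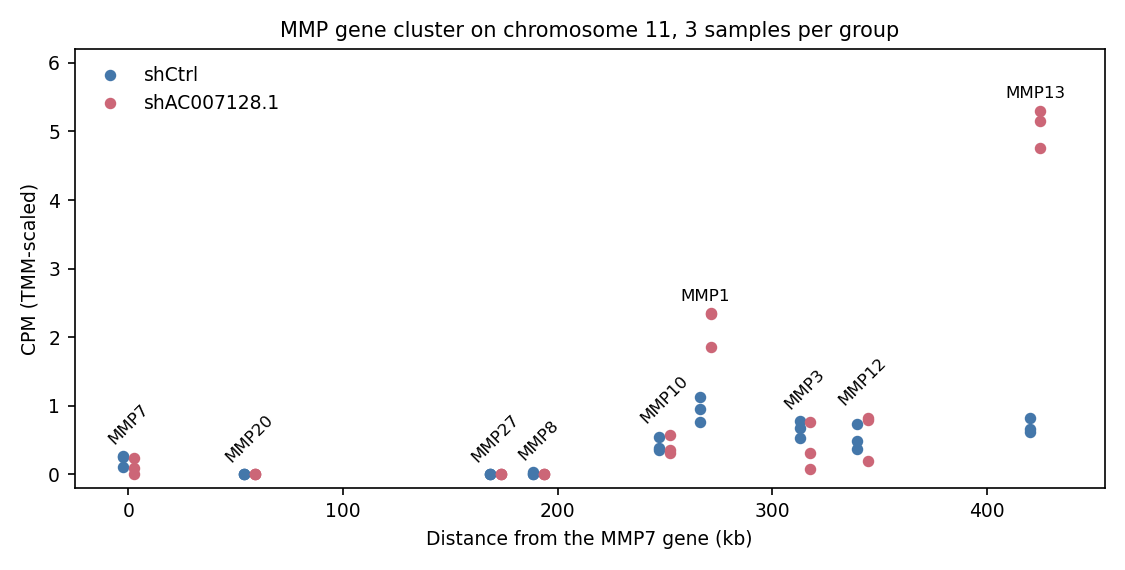
TMM-scaled CPM of the 9 MMP genes of the chromosome 11 cluster in 3 shCtrl (blue) and 3 shAC007128.1 (red) samples, placed by distance in kb from the MMP7 gene, with the groups offset slightly so that points can be seen. MMP1 and MMP13 stand above their shCtrl samples in shAC007128.1 cells, and the groups overlap for MMP3, MMP7, MMP10 and MMP12.

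The gelatinases were far apart in level. MMP2 (ENSG00000087245, plus strand, chr16:55389700-55506691) had 4170, 6212 and 4316 counts in shCtrl cells and 1822, 2266 and 2516 in shAC007128.1 cells. These are 57.0, 77.2 and 63.6 CPM against 32.4, 41.2 and 43.3 CPM. All shAC007128.1 samples lay below all shCtrl samples. MMP2 fell to 59.1% of control, from 65.9 ± 10.3 CPM to 39.0 ± 5.78 CPM (SD, n = 3 each), with a log2 fold change of -0.76 (SE 0.15, 95% interval -1.11 to -0.40, edgeR adjusted p = 0.00649). That size is below the limit of 1, so MMP2 was not called.

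MMP9 (ENSG00000100985, plus strand, chr20:46008908-46016561) was close to the limit of detection, with 54, 5 and 25 counts in shCtrl cells and 13, 5 and 4 in shAC007128.1 cells. The shCtrl samples differed among themselves by more than the groups did, from 0.0622 to 0.738 CPM. Its log2 fold change of -1.56 had a SE of 0.92 and a 95% interval from -3.73 to 0.60 (edgeR adjusted p = 0.220), so a difference was not detected. Without shAC007128.1 replicate 1 the log2 fold change of MMP9 was -2.26, without shCtrl replicate 1 it was -0.71 and without shCtrl replicate 2 it was -2.08, and it passed in none of them. MMP9 shares 430 exonic bases with the antisense RNA SLC12A5-AS1, which had 0 counts in every sample.

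MMP14, the membrane-type protease MT1-MMP, had the highest CPM of the 10 genes. The gene (ENSG00000157227) lies on the plus strand at chr14:22836560-22849041. Its levels were 364, 422 and 431 CPM in shCtrl cells and 332, 316 and 281 CPM in shAC007128.1 cells. The groups were separated by a narrow gap. MMP14 fell to 76.3% of control, from 405.7 ± 36.0 CPM to 309.5 ± 26.2 CPM (SD, n = 3 each), with a log2 fold change of -0.39 (SE 0.09, 95% interval -0.61 to -0.17, edgeR adjusted p = 0.0136). The adjusted p rose to 0.0534 without shCtrl replicate 2 and to 0.0552 without shCtrl replicate 3.

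TIMP2 showed the only called fall of the 10 genes. It inhibits MMPs broadly and takes part in the activation of MMP2. Its gene (ENSG00000035862) lies on the minus strand at chr17:78852977-78925387. Counts were 14070, 15865 and 12932 in shCtrl cells and 3149, 3046 and 2464 in shAC007128.1 cells, or 192, 197 and 191 CPM against 56.02, 55.4 and 42.4 CPM. The shCtrl samples lay close together, and every shAC007128.1 sample was far below them. TIMP2 fell to 26.5% of control, from 193.4 ± 3.44 CPM to 51.3 ± 7.71 CPM (SD, n = 3 each), or 3.77-fold lower. The log2 fold change was -1.92 with a SE of 0.12 and a 95% interval from -2.19 to -1.64 (edgeR adjusted p = 4.90e-05). TIMP2 shares 224 of its 6209 exonic bases with CEP295NL on the same strand, which had 7 to 24 counts per sample.

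TIMP3, an inhibitor that stays bound to the matrix, and TIMP1, a soluble inhibitor, moved in opposite directions and by less than 2-fold. TIMP3 (ENSG00000100234, plus strand, chr22:32801705-32863041) was at 17.8, 17.7 and 17.1 CPM in shCtrl cells and 13.4, 10.1 and 11.7 CPM in shAC007128.1 cells. The groups did not overlap, and TIMP3 fell to 66.8% of control (log2 fold change -0.58, SE 0.13, 95% interval -0.89 to -0.27, edgeR adjusted p = 0.0111). TIMP1 (ENSG00000102265, plus strand, chrX:47582408-47586789) was at 104, 97.5 and 96.1 CPM in shCtrl cells and 117, 115 and 118 CPM in shAC007128.1 cells. It rose to 117.7% of control with no overlap (log2 fold change 0.23, SE 0.07, 95% interval 0.08 to 0.39, edgeR adjusted p = 0.0285). This small rise did not hold across methods, with an adjusted p of 0.129 by DESeq2, 0.0814 by edgeR when scaled by library size only, and 0.119 by edgeR without shCtrl replicate 2. An exact two-sided permutation test of the CPM gave p = 0.1 for each of the 7 genes whose groups were separated. That is the smallest p that 3 samples against 3 allow, and the design cannot reach 0.05 with that test.

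To compare levels between genes, counts were divided by exonic length and scaled to the same total in each sample (TPM). In shCtrl cells MMP14 was highest at 279.5 ± 29.6 TPM, followed by TIMP1 at 218.0 ± 5.75, TIMP2 at 99.1 ± 1.99, MMP2 at 44.6 ± 7.06 and TIMP3 at 12.1 ± 0.0743 (SD, n = 3 each). The ranges of these 5 neighbours did not overlap. The other 5 genes, MMP3, MMP1, MMP13, MMP10 and MMP9, followed at means of 0.528 to 1.13 TPM, and each overlapped with the next. In shAC007128.1 cells TIMP1 was first at 253.8 ± 3.13 TPM and MMP14 second at 210.8 ± 20.8 TPM. TIMP2, at 26.0 ± 4.36 TPM, was level with MMP2 at 26.1 ± 3.91 TPM, and their ranges overlapped. With the longest transcript as length their means were 34.6 TPM for TIMP2 and 27.3 TPM for MMP2. MMP13 and MMP1 came next after TIMP3, at 5.63 ± 0.179 and 2.51 ± 0.346 TPM, and both were separate from MMP10, MMP3 and MMP9 below them. In bulk RNA, fewer cells that express a gene and less RNA per cell cannot be told apart.

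Ratios of TPM within a sample do not depend on library scaling. They were formed after the values had been seen and are given with no test. TIMP1 to TIMP2 was 2.32, 2.12 and 2.16 in shCtrl samples and 8.96, 8.91 and 11.9 in shAC007128.1 samples. MMP14 to TIMP2 was 2.55, 2.87 and 3.04 against 7.95, 7.66 and 8.89, and MMP2 to TIMP2 was 0.391 to 0.517 against 0.763 to 1.35. Both proteases fell, but TIMP2 fell further, so each stood higher relative to TIMP2 in shAC007128.1 cells. Relative to TIMP1 the order was the opposite, with MMP14 to TIMP1 at 1.10 to 1.40 in shCtrl samples and 0.744 to 0.888 in shAC007128.1 samples. MMP14 to TIMP3 overlapped between the groups, at 20.4 to 25.1 against 23.9 to 31.3. The ratio of all MMPs to all TIMPs was lower in shAC007128.1 samples, at 1.13 to 1.32 in shCtrl samples against 0.903 to 1.0. TIMP1 made up 66.2% ± 0.9998 of all TIMP transcripts in shCtrl cells and 88.2% ± 1.36 in shAC007128.1 cells (SD, n = 3 each), while the share of TIMP2 went from 30.1% ± 0.936 to 9.02% ± 1.32. MMP13 made up 0.191% ± 0.0292 of all MMP transcripts in shCtrl cells and 2.03% ± 0.221 in shAC007128.1 cells, so the called rise concerned a small part of the MMP transcripts. Summed over the 23 MMP genes the level went from 413.5 ± 32.9 to 278.5 ± 22.3 TPM, and summed over the 4 TIMP genes from 329.3 ± 3.69 to 287.9 ± 7.003 TPM.

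**Figure D3:**
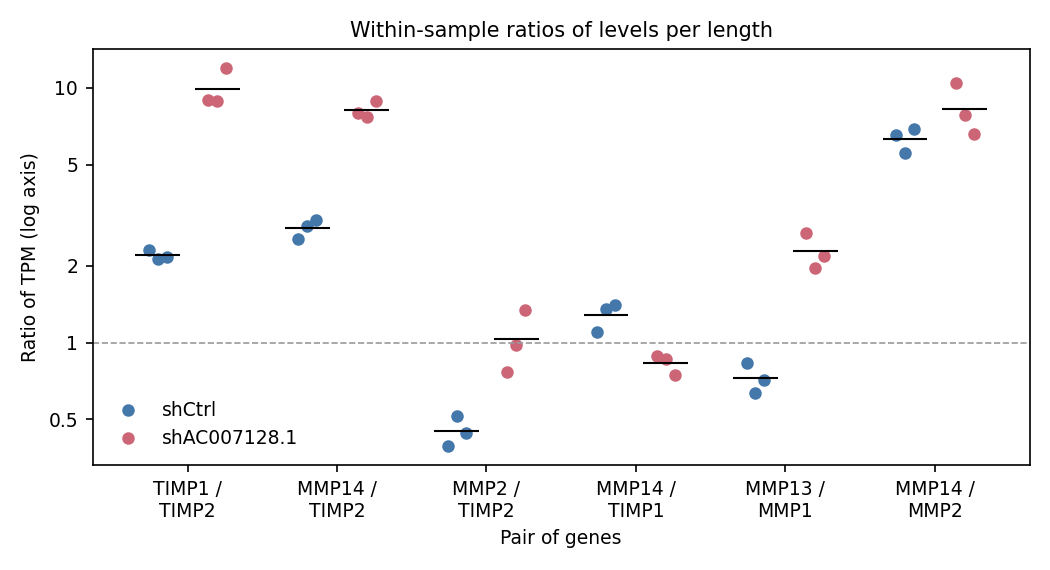
Ratios of TPM between pairs of genes within each sample (log axis), for 3 shCtrl (blue) and 3 shAC007128.1 (red) samples, with black bars for group means and a dashed line at equal levels. TIMP1, MMP14 and MMP2 all stand higher relative to TIMP2 in shAC007128.1 cells (means of 9.94, 8.17 and 1.03 against 2.20, 2.82 and 0.449), while MMP14 to MMP2 overlaps between groups.

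Promoters are shown for the 4 of the 10 genes that have an entry in the RefSeq promoter table (GRCh38.p14), because these genes differ in both level and direction of change. MMP1, MMP2, MMP3, MMP9, MMP13 and TIMP2 had no entry. Each line gives the 100 bases before the RefSeq start, read 5′ to 3′ on the strand of the gene, for MMP10 at chr11:102780629-102780728 (minus), MMP14 at chr14:22836485-22836584 (plus), TIMP1 at chrX:47582336-47582435 (plus) and TIMP3 at chr22:32801605-32801704 (plus). Capitals mark the TATA box TATAAA, searched on the strand of the gene, and the GC box GGGCGG, searched on both strands and so also written CCGCCC.
MMP10: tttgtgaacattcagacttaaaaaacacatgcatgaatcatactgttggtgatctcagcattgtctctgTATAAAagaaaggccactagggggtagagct
MMP14: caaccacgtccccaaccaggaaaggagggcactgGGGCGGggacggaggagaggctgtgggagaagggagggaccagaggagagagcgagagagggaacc
TIMP1: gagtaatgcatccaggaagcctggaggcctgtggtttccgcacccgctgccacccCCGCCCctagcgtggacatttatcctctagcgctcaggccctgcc
TIMP3: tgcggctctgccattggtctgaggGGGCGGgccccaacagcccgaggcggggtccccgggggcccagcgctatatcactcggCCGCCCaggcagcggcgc

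The 250 bases before the start were searched in the same way. MMP10, which was low in both groups, had a TATA box 31 bases before its start and no GC box, and its GC content was 34.4%. MMP14, TIMP1 and TIMP3, which were among the 5 highest genes in both groups, had no TATA box and 1, 2 and 5 GC boxes, with GC contents of 56.8%, 64.8% and 72.4%. Other family genes with an entry were mixed. MMP11, MMP23B, MMP24 and TIMP4, at group means of 5.70 CPM or less, had 3, 2, 3 and 1 GC boxes and no TATA box. MMP15, at 53.0 and 12.25 CPM, had 5 GC boxes and no TATA box. MMP7, MMP8, MMP20, MMP21 and MMP26, at 0.819 CPM or less, held the letters TATAAA and no GC box. The match lay 30 and 28 bases before the start in MMP7 and MMP26, close to its place in MMP10. In MMP8, MMP20 and MMP21 it lay further away, at 110, 72 and 92 bases before the start. MMP27, with 0 counts, had neither. Whether these motifs go with level was not tested. Among all 27305 promoters, 7.17% held TATAAA and 42.3% held GGGCGG, and the median GC content was 58.0%. The AP-1 motif TGAGTCA, searched on both strands, was in 4.16% of all promoters and in none of the 4. Among the other family genes with an entry, only MMP7 held it, 67 bases before the start. These matches describe letters in a window and say nothing of binding.

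The rest of the family comprises 17 genes, of which 12 passed the filter on low counts. Of these 12, 5 were called lower in shAC007128.1 cells and none was called higher, against 10.1% and 5.57% of all genes tested. MMP15, a membrane-type protease like MMP14, was at 55.6, 56.7 and 46.8 CPM in shCtrl cells and 14.8, 13.1 and 8.81 CPM in shAC007128.1 cells, with a wide gap between the groups. MMP15 fell by 2.11 on the log2 scale (SE 0.20, edgeR adjusted p = 0.000238). MMP28, epilysin, was at 18.7, 18.01 and 15.6 CPM against 5.62, 4.82 and 4.28 CPM, again with no overlap, and fell by 1.83 (SE 0.15, edgeR adjusted p = 0.000143). MMP11, stromelysin 3, went from 2.42 ± 0.527 to 0.962 ± 0.309 CPM (SD, n = 3 each; log2 fold change -1.33, edgeR adjusted p = 0.0115).

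MMP19 and MMP25, the latter anchored to the membrane by a lipid, were also called lower, with weaker support. MMP19 had a log2 fold change of -1.61 (SE 0.42, edgeR adjusted p = 0.0195) and shares 821 of its 4672 exonic bases with TMEM198B on the opposite strand. MMP25 had 87, 158 and 110 counts against 0, 23 and 10, with a log2 fold change of -3.01 (SE 0.87, edgeR adjusted p = 0.0284), and shares 1454 bases with MMP25-AS1. Without shCtrl replicate 1, and also without shCtrl replicate 2, neither gene was called, which leaves 3 called lower. The call of MMP25 was also lost without shCtrl replicate 3 and without shAC007128.1 replicate 3.

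Of the other 7 tested, MMP17 was lower at the adjusted p alone (21.1 ± 1.51 to 11.2 ± 1.46 CPM, log2 fold change -0.91, edgeR adjusted p = 0.00152). MMP24 was higher on those terms (3.14 ± 0.132 to 5.70 ± 1.60 CPM, log2 fold change 0.86, edgeR adjusted p = 0.0186), though its adjusted p reached 0.0627 among the alternatives, and it shares 806 exonic bases with MMP24OS on the opposite strand. MMP16, MMP21 and MMP23B, like MMP7 and MMP12 above, did not pass, with log2 fold changes of 0.48, -0.38 and 0.11. MMP26 had 0 counts in every sample and TIMP4 had 4 counts in 1 sample of each group. Over the whole family of 27 genes, 22 were tested, of which 2 were called higher and 6 lower, against 5.57% and 10.1% of all genes tested. Their median log2 fold change was -0.67.

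**Figure D4:**
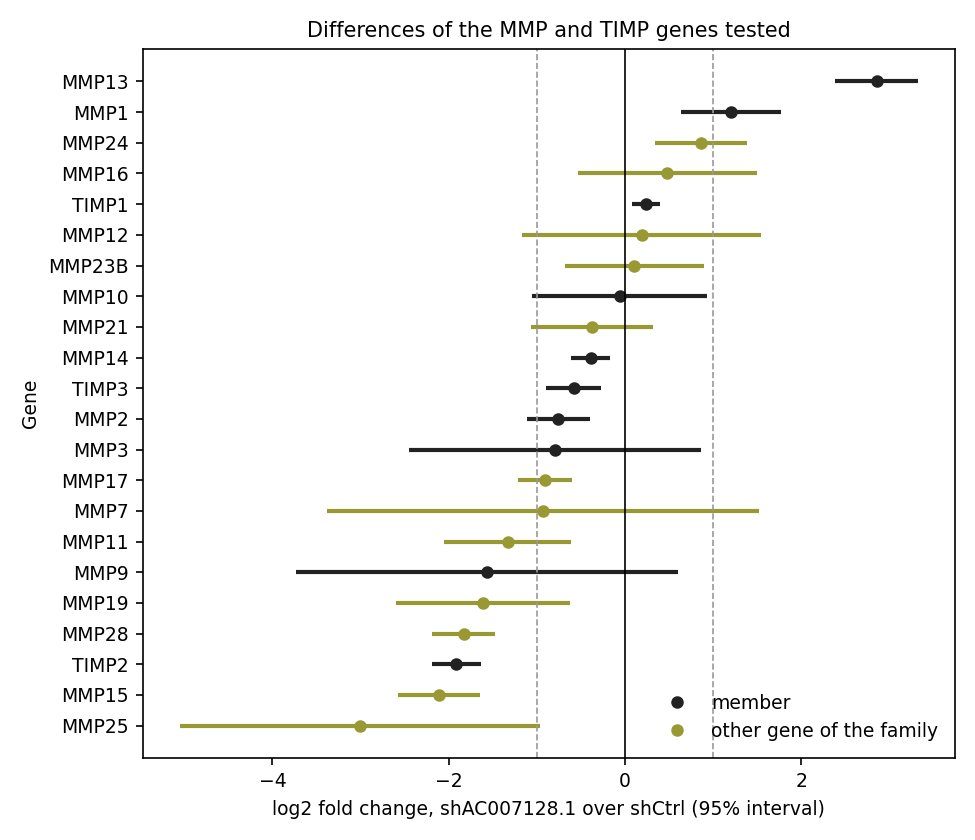
Log2 fold change (shAC007128.1 over shCtrl) with its 95% interval for the 22 family genes tested, the 10 genes of the report in black and the other 12 in olive, with dashed lines at the limits of -1 and 1. MMP13 and MMP1 lie at the upper end (2.85 and 1.21), and TIMP2, MMP15 and MMP25 at the lower end (-1.92, -2.11 and -3.01), and MMP7, MMP9 and MMP25 have the widest intervals.

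Genes that activate, inhibit or take up MMPs were read next, as 19 genes of which 14 were tested. Of these, 2 were called higher and 1 lower, where 5.57% and 10.1% of all genes were. At the adjusted p alone 4 were higher and 7 lower, where 21.0% and 19.8% of all genes were. PLAUR, the receptor that holds the plasminogen activator urokinase at the cell surface, rose from 31.4 ± 3.69 to 67.9 ± 13.2 CPM (SD, n = 3 each; log2 fold change 1.11, edgeR adjusted p = 0.00165). PCSK5, a proprotein convertase, rose from 24.1 ± 1.31 to 59.8 ± 0.955 CPM (log2 fold change 1.31, edgeR adjusted p = 5.2e-05). LCN2, a lipocalin that binds MMP9, fell from 49.7 ± 1.74 to 5.67 ± 0.226 CPM (log2 fold change -3.13, edgeR adjusted p = 1e-05). THBS1, thrombospondin 1, had the highest mean CPM of the list and a log2 fold change of -0.27. The median log2 fold change of the 14 genes was -0.12.

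Signals that are known to act on MMP genes were read as 17 genes. Of 15 tested, 4 were called lower, where 10.1% of all genes were, and none was called higher, where 5.57% of all genes were. The median log2 fold change was -0.72. The interleukin genes IL1A, IL1B and IL6 fell, with log2 fold changes of -2.88, -2.62 and -2.63. EGFR, the receptor of epidermal growth factor and the gene of the list with the highest mean CPM, fell from 1624 ± 8.26 to 623.9 ± 29.9 CPM (SD, n = 3 each; log2 fold change -1.38). The 4 had edgeR adjusted p-values between 8e-06 and 1.6e-05. Transcription factors of the AP-1, ETS and RUNX families, many of which are known to bind MMP promoters, were all 16 tested. Of these 4 were called lower, against 10.1% of all genes, and none higher, against 5.57%, with a median of -0.59. FOS, FOSB, ATF3 and JUND were the 4, with log2 fold changes of -2.10, -1.72, -1.35 and -1.02. JUND was not called without shCtrl replicate 2 or without shAC007128.1 replicate 3, where RUNX2 was called instead. ETS1, the highest in mean CPM over all 6 samples, had -0.76. At the edgeR adjusted p alone, each of these lists had 8 genes lower and 2 higher, where 19.8% and 21.0% of all genes were. MMP1 and MMP13 rose in the same samples in which the called genes of these lists fell, and whether the changes are linked was not tested.

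Of the related ADAM and ADAMTS proteases 14 of 21 were tested, with a median log2 fold change of -0.08. Of these, 1 was called higher and 2 lower, where 5.57% and 10.1% of all genes were. ADAMTS13 and ADAMTS7 had log2 fold changes of -2.28 and -2.22 (edgeR adjusted p = 0.00106 and 0.0105). ADAM12 went from 0.118 ± 0.0872 to 0.524 ± 0.202 CPM (SD, n = 3 each), and its call was lost in 7 of 14 alternatives. ADAM17, the highest in mean CPM over all 6 samples, had -0.83. Genes of matrix proteins that MMPs cut were tested for 19 of 23, with a median of 0.13. Of these, 3 were called higher, against 5.57% of all genes, and 1 lower, against 10.1%. The basement membrane collagens COL4A1 and COL4A5 rose by 1.44 and 1.20 on the log2 scale, and COL7A1, the collagen of anchoring fibrils, rose by 1.09. LAMC1, a laminin chain, fell by 1.04, and LAMA5, the highest in mean CPM over all 6 samples, had -0.21.

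**Figure D5:**
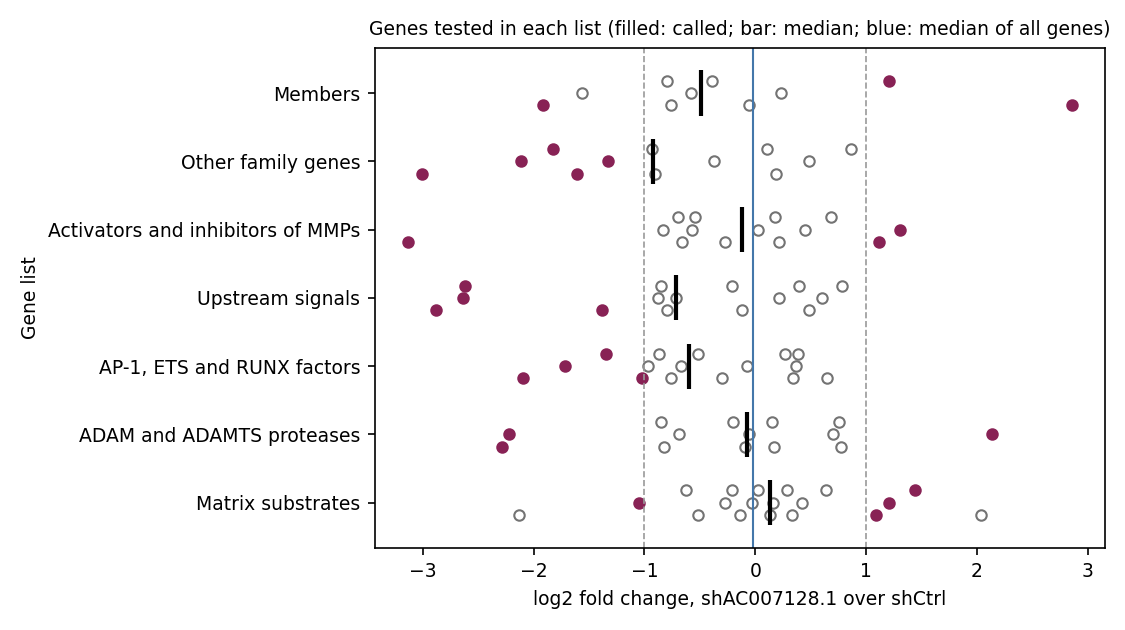
Log2 fold change (shAC007128.1 over shCtrl) of every gene tested in the 7 gene lists, filled where called, with a black bar for the median of the list, a blue line for the median of all genes tested and dashed lines at -1 and 1. The medians run from -0.92 for the other family genes to 0.13 for matrix substrates, and each list holds genes on both sides of 0.

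Markers of other cell types were read as well, where 5.57% of all genes tested were called higher and 10.1% lower. Fibroblast markers summed to 15.2 to 16.0 CPM in shCtrl samples and 20.9 to 23.9 CPM in shAC007128.1 samples, with 1 called higher and 1 lower of 3 tested. COL1A1 had 946 to 1091 counts in every sample. Scaled for depth, its mean went from 13.9 CPM in shCtrl cells to 17.5 CPM in shAC007128.1 cells (log2 fold change 0.33, edgeR adjusted p = 0.0462, not called). LUM had 41 to 112 counts in shCtrl samples and 220 to 308 in shAC007128.1 samples (called higher, log2 fold change 2.14), and PDGFRB 24 to 51 against 5 to 13 (called lower, log2 fold change -1.60). COL3A1 had 0 to 16 counts and DCN 5 to 8, and neither was tested. Endothelial markers summed to 2.12 to 3.11 CPM against 0.302 to 2.02 CPM, with 0 of 2 called by edgeR. Leukocyte markers summed to 59.3 to 67.6 CPM against 13.8 to 23.5 CPM, nearly all of it CD68, which had 3987 to 5263 counts against 740 to 1319 and was called lower. CD68 shares 1765 of its 2163 exonic bases with ENSG00000264772 on the same strand, so these counts cannot be assigned to CD68 alone. ITGAM was tested and not called, and PTPRC had 0 to 9 counts per sample. The part of these genes in the MMP and TIMP values was not tested.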

How the data were processed

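RNA of 6 KYSE150 samples (3 shCtrl, 3 shAC007128.1) was read as paired-end TruSeq libraries. The authors mapped reads to hg38 with TopHat. The submitters' processing notes also list CASAVA 1.8, TopHat2 2.0.6, GRCh38 and mm10, with no role. The deposited values are estimated counts per gene, which the authors wrote as whole numbers without normalization. They were used as they are. The counting program, annotation release and use of strand are not given in the sources used here. Samples were mapped by their titles. The treatment text, which gives the same hairpin for both groups, was not used.

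Counts were filtered with filterByExpr (47886 of 67140 identifiers removed), scaled by TMM (factors 0.967 to 1.04) and tested with edgeR 4.0.16 (glmQLFit, glmQLFTest) in R 4.3.3 over all 19254 genes, with Benjamini-Hochberg adjustment. Standard errors came from dividing each log2 fold change by the root of its F. TPM use the union of exons of GENCODE v44, which holds 60357 identifiers (89.9%). Intervals and the floor of 3 counts cover the spread and counting error only. The steps were tested on simulated data.

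The 10 genes and all lists were chosen with earlier results of these data known. Named are the 10 genes, AC007128.1, every other family gene tested, and in each other list except markers the called genes (at most 8) and the gene with the highest mean CPM. WTAPP1, the other overlapping genes, the markers, and RUNX2, were named after values were seen. Alternatives were DESeq2 1.42.0, limma-voom (limma 3.58.1), size factors of DESeq2, scaling by library size alone, no filter on low counts, a minimum of 10 counts per sample, counts divided by 4, the replicate block, each sample left out, no limit on fold change and, for TPM, the longest transcript. Counting the same alternatives over the other gene lists was added after seeing the data.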

Additional observations from a re-analysis of the deposited data

How the results depend on the processing

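The counts of 2 of the 10 genes called higher and 1 called lower were the same in all 14 alternatives that keep the limit on fold change. Without that limit 4 of the 10 were lower and 3 higher, and over all genes 3820 were lower and 4041 higher. Leaving out each sample in turn gave 1586 to 2023 genes called lower and 970 to 1068 called higher, and 1 lower and 2 higher among the 10 each time. MMP10, which ran from -0.37 to 0.15 when samples were left out, changed sign, to 0.15 without shCtrl replicate 2, 0.03 without shAC007128.1 replicate 1 and 0.11 without shAC007128.1 replicate 2, and did not pass the test in any of them. Across the alternatives the log2 fold change of MMP13 ran from 2.77 to 2.98, of MMP1 from 1.07 to 1.34, of TIMP2 from -1.99 to -1.80 and of MMP2 from -0.86 to -0.63, while MMP3 ran from -1.80 to -0.30 and MMP9 from -2.26 to -0.71. Under a replicate block the calls among the 10 were again 1 lower and 2 higher, with 1692 genes lower and 977 higher, and the adjusted p of TIMP1 rose to 0.0763. Same-numbered samples shared only a number, with correlations of their deviations of 0.0306, -0.0254 and -0.0299. Requiring 10 counts in every sample left MMP3 and MMP9 untested, and dividing counts by 4 left MMP9 and MMP10 untested. With the longest transcript as length the TPM of TIMP2 were 133.1 and 34.6 in shCtrl and shAC007128.1 cells, and those of MMP2 47.2 and 27.3. MMP3, MMP9 and MMP10 had 62 counts or fewer per sample. The cause of these shifts was not tested.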
